A study of Mus musculus with 14 samples.

Results

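The claudins, the desmosomal cadherins and the connexins are the membrane proteins of 3 kinds of cell junction, and their genes were followed in whole ear tissue of mice. Members were the rows of the deposited table whose names follow the pattern of these families, and the rule used no measured value. It found 50 genes among 24035 named genes, namely 25 claudins, 6 desmogleins, 3 desmocollins and 16 connexins. RNA sequencing had been done on 14 whole ear samples in 4 groups, called ears here. The LC-DTA croton oil and LC-DTA vehicle groups came from mice with a long-term ablation of Langerhans cells, antigen-presenting cells of the epidermis, through a diphtheria toxin subunit. The LC-DTR croton oil and LC-DTR vehicle groups came from mice with a short-term ablation, taken 3 days after diphtheria toxin was given to mice that carry its receptor. Both sides of the ear had received 20 µl of 1% croton oil, an irritant, or of its vehicle, acetone and olive oil mixed 4 to 1, and tissue was taken after 6 h. Each genotype had 4 croton oil and 3 vehicle ears. All 4 groups were thus depleted of Langerhans cells, so no group with these cells serves as a control here. The sources used here do not name the promoter behind each transgene, the strain, sex or age of the mice, or whether LC-DTA mice also received toxin. Nothing in the labels ties each ear to its own animal, and p-values therefore measure the spread between these samples, which may be technical.

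Claudins span the membrane in tight junctions, which in the epidermis seal the granular layer, and different claudins make the seal tighter or let ions through. Desmogleins and desmocollins are the adhesive cadherins of desmosomes. In skin, Dsg3 and Dsc3 are known from the lower layers, and Dsg1 and Dsc1 from the upper ones. Connexins assemble into gap junction channels through which neighbouring cells exchange small molecules, and keratinocytes use several of them at once.

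The deposited values were TPM, a share of all transcripts in the sample, which are corrected for transcript length, so levels can be set side by side between genes. Differences were tested with limma on log2(TPM + 1), and a gene was called at a Benjamini-Hochberg adjusted p under 0.05 over 14693 genes tested. A log2 difference below is on that scale, given with its standard error, and it understates the change of low genes. Samples held 13733 to 14332 genes at 1 TPM or more, and read depth is unknown. Basal and suprabasal keratinocyte markers were present in every sample, and Cd207, the defining Langerhans cell marker, was at 1.88 TPM or less. Cd207 and the other 3 listed Langerhans cell markers, Epcam, Cd74 and Mfge8, which other skin cells also express, together summed to 765 to 963 TPM in LC-DTA croton oil ears, 748 to 1029.5 TPM in LC-DTA vehicle ears, 791 to 976 TPM in LC-DTR croton oil ears and 516 to 658 TPM in LC-DTR vehicle ears. Of these other 3, Epcam rose in both genotypes after croton oil, and Cd74 and Mfge8 fell in LC-DTA. In whole tissue, fewer cells of a type and less RNA per cell cannot be told apart. On the first principal component of the tested genes, which held 50.5% of the variance, LC-DTR croton oil samples 2 and 3 stood at 5.26 and 8.06. Samples 1 and 4 of that group stood at 28.5 and 28.6. LC-DTA croton oil ears lay between 28.3 and 41.0, and vehicle ears of both genotypes between -41.0 and -30.2. Where leaving out both samples changes whether a named member is called, the value without them is given. LC-DTA croton oil samples 3 and 4 were also left out as a pair. Their label numbers, 10796 and 10797, stand apart from 10601 and 10602 of samples 1 and 2. The labels do not say whether this marks a batch. On the first component these 2 stood at 41.0 and 32.7, not apart from their group.

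Of the 50 genes, 32 reached 1 TPM in at least 3 samples and were tested. These were 12 claudins, 5 desmogleins, 3 desmocollins and 12 connexins. The other 18 were 4 connexins, Dsg4 and the claudins Cldn6, Cldn7, Cldn9, Cldn11, Cldn13, Cldn14, Cldn16, Cldn17, Cldn18, Cldn20, Cldn22, Cldn24 and Cldn26. The highest value among them was 1.34 TPM, 15 were never at 1 TPM, and Cldn18 and Gja10 were listed at 0 in every sample. The name Cldn25 is an older symbol of more than 1 gene in RefSeq, so its values are given without a role. Cldn26 is an older symbol of Tmem114. Both were kept as claudins by name, so claudin counts, sums and shares include them. Dsg1a, Dsg1b and Dsg1c are near copies: 31.6% of the 50-base words of Dsg1a transcripts also occur in Dsg1b, and 45.5% of those of Dsg1b occur in Dsg1a. How the authors counted reads that fit both is not stated, so values of the 3 genes are uncertain. Cldn3, Cldn19 and Dsg2 overlap an exon of a gene on the other strand, and use of strand in counting is not stated.

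Members cluster in the genome. All 9 desmosomal cadherin genes lie together on chromosome 18. On GRCm38 (GENCODE M21), Gja3, Gjb2 and Gjb6 lie on chromosome 14 between 57034460 and 57133611. Cldn4 (chromosome 5, 134945119 to 134946934) and Cldn3 (134986214 to 134987472) lie close together on opposite strands.

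Desmosomal cadherins led the level order. Dsc3 averaged 663 ± 34.8 TPM in LC-DTA croton oil, 656 ± 45.1 TPM in LC-DTA vehicle, 585 ± 24.04 TPM in LC-DTR croton oil and 774 ± 48.6 TPM in LC-DTR vehicle ears (SD, n = 4 for croton oil and n = 3 for vehicle, here and below). Dsg1a was near or above it in vehicle ears, with 619 ± 48.02 TPM in LC-DTA and 815 ± 24.8 TPM in LC-DTR. The 2 ranges overlapped in both vehicle groups. Within ears, Dsc3 lay above Dsg1a in every LC-DTA vehicle ear and below it in every LC-DTR vehicle ear. The closest pair was in LC-DTR vehicle sample 2, with 784 TPM for Dsc3 and 787 TPM for Dsg1a. This order was not tested. Cldn1, the claudin that the epidermal barrier is known to need, and Cldn4 led the claudins. Together they made up 75.3 ± 0.679% of claudin TPM in LC-DTA croton oil, 66.1 ± 0.358% in LC-DTA vehicle, 80.8 ± 1.95% in LC-DTR croton oil and 69.8 ± 1.99% in LC-DTR vehicle ears. Among connexins, Gja1 and Gjb2 held 47.5 ± 4.27% of the summed TPM in LC-DTA croton oil and 20.5 ± 0.870% in LC-DTA vehicle ears. The LC-DTR shares were 33.1 ± 3.73% after croton oil and 16.7 ± 3.02% under vehicle. A set of 17 genes averaged at least 20 TPM in some group.

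**Figure D1:**
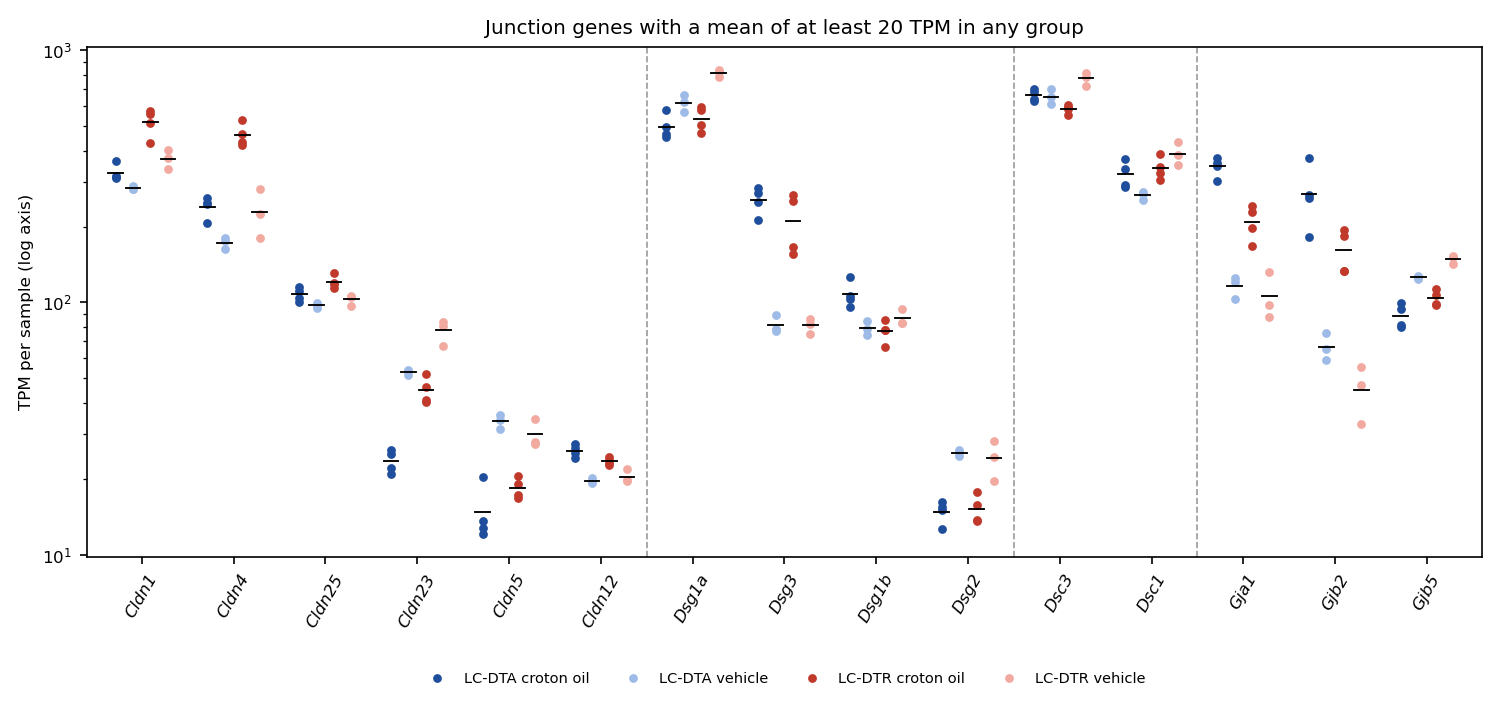
TPM of each sample (points, log axis) and group means (bars) for 15 of the 17 genes that averaged at least 20 TPM in some group, ordered by family, with groups as LC-DTA croton oil, LC-DTA vehicle, LC-DTR croton oil and LC-DTR vehicle from left to right. Dsc3 and Dsg1a stand highest, and the croton oil points of Dsg3, Gja1 and Gjb2 lie above the vehicle points of the same genotype.

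The 250 bases before the RefSeq start (GRCm38.p6) are shown for 4 genes, because Cldn4, Gja1 and Gjb2 were among the members that rose in both genotypes and Cldn15 was called in no comparison, although with quantile normalization it was lower in LC-DTA than in LC-DTR after croton oil (log2 difference -0.30, limma adjusted p = 0.0336). Windows were found for 30 members, 17 of them tested, and numbered 42 because some genes have several starts. They were searched on both strands for the AP-1 letters TGANTCA, which 3 of the 42 windows and 6.75% of 32851 windows of all genes held. Capitals mark the matches, which lie 240 and 158 bases before the start of Cldn4, 19 before that of Gja1 and 214 before that of Cldn15.
Cldn4 (chr5:134946935-134947184, minus strand): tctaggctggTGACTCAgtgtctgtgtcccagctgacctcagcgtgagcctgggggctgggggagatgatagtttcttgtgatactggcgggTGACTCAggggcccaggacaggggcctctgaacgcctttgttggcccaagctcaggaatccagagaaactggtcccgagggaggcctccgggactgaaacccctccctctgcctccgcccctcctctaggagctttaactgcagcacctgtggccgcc
Gja1 (chr10:56377050-56377299, plus strand): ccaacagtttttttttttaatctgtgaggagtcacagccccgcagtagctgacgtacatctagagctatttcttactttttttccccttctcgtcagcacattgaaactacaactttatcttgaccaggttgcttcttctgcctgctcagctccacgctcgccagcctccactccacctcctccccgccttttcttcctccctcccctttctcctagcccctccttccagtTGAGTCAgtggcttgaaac
Cldn15 (chr5:136967619-136967868, plus strand): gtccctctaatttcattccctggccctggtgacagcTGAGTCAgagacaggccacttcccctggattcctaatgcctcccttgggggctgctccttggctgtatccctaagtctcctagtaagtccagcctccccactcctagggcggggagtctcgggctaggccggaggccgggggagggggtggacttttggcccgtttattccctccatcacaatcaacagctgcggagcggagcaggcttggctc
Gjb2 (chr14:57104703-57104952, minus strand): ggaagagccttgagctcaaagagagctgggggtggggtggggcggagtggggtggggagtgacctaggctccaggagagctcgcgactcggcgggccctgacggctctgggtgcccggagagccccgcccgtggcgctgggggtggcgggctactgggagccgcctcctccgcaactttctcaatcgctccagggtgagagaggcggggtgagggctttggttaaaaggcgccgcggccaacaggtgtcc
The Gjb2 window held no match. Cldn15, with a match, did not pass the test after croton oil in LC-DTA or LC-DTR ears, at log2 differences of -0.15 ± 0.11 (adjusted p = 0.269) in LC-DTA and 0.05 ± 0.11 (adjusted p = 0.743) in LC-DTR by limma. The letters AACNGGTT, bound by Grainyhead-like factors and also searched on both strands, occurred in 2 of the 42 windows, those of Cldn5 and Gjb6, and in 1.79% of all windows. A match of letters is a description of the window and not a binding site.

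In each genotype taken alone, most members were called 6 h after croton oil, in both directions, as were most genes tested. In LC-DTA ears 11 of the 32 tested members rose and 14 fell, where 24.2% of all genes tested rose and 34.5% fell (58.7% in either direction). In LC-DTR ears 9 rose and 9 fell, where 22.1% of all genes rose and 29.5% fell (51.6%), so the LC-DTR count is near the share over all genes. The median log2 difference of the members was -0.20 in LC-DTA and -0.06 in LC-DTR, and that of all genes was -0.09 in LC-DTA and -0.06 in LC-DTR. Cldn4, Cldn12, Dsg3, Gja1 and Gjb2 were among those that rose in both genotypes. Cldn5, Cldn8, Cldn23, Dsg1a, Dsg2 and Gjb5 were among those that fell in both. Cldn2 rose in LC-DTR and fell in LC-DTA ears. Neutrophil markers rose with the treatment, 6 of 6 tested in each genotype, and their summed level ranged from 440.5 to 668 TPM in LC-DTA croton oil ears, 33.6 to 64.5 TPM in LC-DTA vehicle ears, 261 to 769 TPM in LC-DTR croton oil ears and 25.7 to 68.7 TPM in LC-DTR vehicle ears. None of them was at 0, and their part in the members' changes was not tested.

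**Figure D2:**
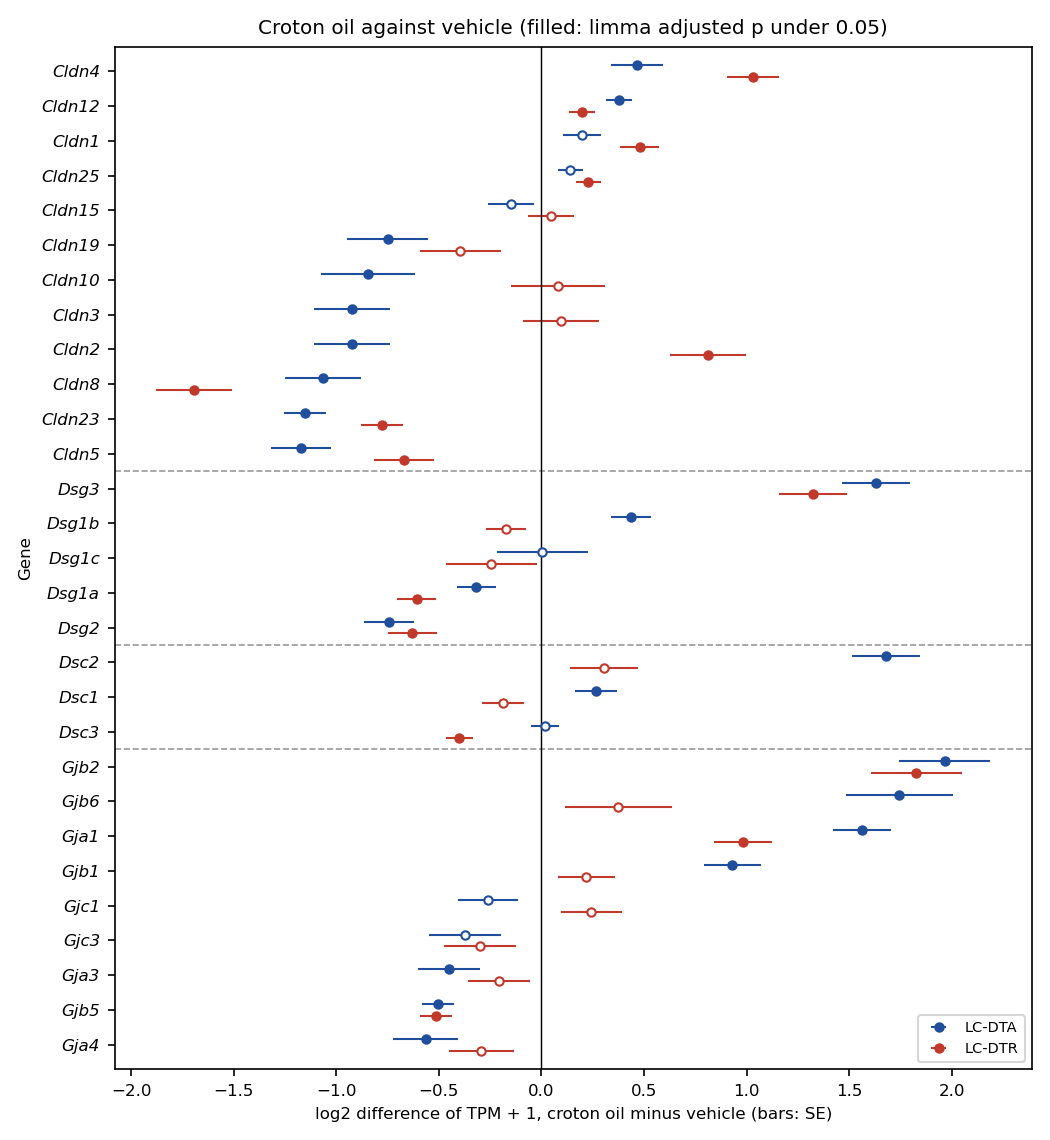
log2 difference of TPM + 1, croton oil minus vehicle, with its SE for 29 of the 32 tested members by family, LC-DTA above LC-DTR in each row, with filled points at a limma adjusted p under 0.05. Gjb2, Dsg3 and Gja1 lie far to the right in both genotypes, Cldn8 lies farthest to the left in LC-DTR at -1.69, and Cldn2 lies on opposite sides of 0.

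Cldn4, a claudin that limits ion flow, was the claudin with the highest rise in LC-DTR. Cldn4 had 258, 246, 247 and 207 TPM in LC-DTA croton oil ears, against 175, 162 and 181 TPM in LC-DTA vehicle ears. In LC-DTR, Cldn4 had 431, 465, 423 and 531 TPM in croton oil ears, against 224, 282 and 180.5 TPM in vehicle ears. The groups did not overlap in either genotype, and the log2 difference was 0.47 ± 0.13 (adjusted p = 0.0061) in LC-DTA and 1.03 ± 0.13 (adjusted p = 2.94e-05) in LC-DTR by limma. Left without its croton oil samples 2 and 3, LC-DTR gave 1.09 ± 0.16 (adjusted p = 0.000164).

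Cldn1 had 311, 317, 315 and 362 TPM in LC-DTA croton oil ears, against 281, 289 and 282 TPM in LC-DTA vehicle ears. In LC-DTR, Cldn1 had 514, 574, 429 and 560.0 TPM in croton oil ears, against 372, 403 and 338 TPM in vehicle ears. In LC-DTR this was a rise of 0.48 ± 0.09 on the log2 scale (adjusted p = 0.000883, limma). LC-DTA croton oil samples also lay above the vehicle samples, but the difference of 0.20 ± 0.09 did not pass (adjusted p = 0.0835). It passed without LC-DTR croton oil sample 3 (log2 difference 0.20, limma adjusted p = 0.0311). It also passed with median ratio scaling (0.27, adjusted p = 0.0371) and without both LC-DTR croton oil samples 2 and 3 (adjusted p = 0.0307). LC-DTA croton oil sample 4, at 362 TPM, stood apart from the other 3.

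Cldn23 had 25.02, 20.9, 22.01 and 25.9 TPM in LC-DTA croton oil ears, against 53.6, 51.6 and 54.2 TPM in LC-DTA vehicle ears. In LC-DTR, Cldn23 had 40.2, 46.02, 52.1 and 40.8 TPM in croton oil ears, against 80.8, 83.99 and 67.4 TPM in vehicle ears. Cldn23 fell in both genotypes with no overlap, with log2 differences of -1.15 ± 0.10 (adjusted p = 2.18e-06) in LC-DTA and -0.78 ± 0.10 (adjusted p = 5.18e-05) in LC-DTR by limma. The Cldn23 protein belongs to the claudins of the upper epidermis. Cldn12, which differs from other claudins in its cytoplasmic end, rose little. Cldn12 had 24.2, 26.5, 25.2 and 27.4 TPM in LC-DTA croton oil ears, against 19.5, 19.2 and 20.2 TPM in LC-DTA vehicle ears. In LC-DTR, Cldn12 had 24.5, 23.8, 22.6 and 23.1 TPM in croton oil ears, against 21.8, 19.8 and 19.6 TPM in vehicle ears. Its log2 difference was 0.38 ± 0.06 (adjusted p = 0.000195) in LC-DTA and 0.20 ± 0.06 (adjusted p = 0.0175) in LC-DTR by limma. The Cldn12 call was lost without each of LC-DTR vehicle sample 2 and LC-DTR vehicle sample 3 in turn, at log2 differences of 0.17 to 0.18 and limma adjusted p of 0.0582 to 0.0656. The replicate block also ended it (0.19, adjusted p = 0.0605). Cldn25 had 101, 111, 104 and 115 TPM in LC-DTA croton oil ears, against 97.8, 94.6 and 99.8 TPM in LC-DTA vehicle ears. In LC-DTR, Cldn25 had 114, 130.4, 119 and 119.6 TPM in croton oil ears, against 106, 105 and 96.8 TPM in vehicle ears. Cldn25 rose by 0.23 ± 0.06 in LC-DTR (adjusted p = 0.00695, limma). The LC-DTA difference of 0.14 ± 0.06 did not pass (adjusted p = 0.0635). It passed without each of LC-DTA croton oil sample 1 and LC-DTR croton oil sample 2 in turn, at limma adjusted p of 0.0312 to 0.0466.

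Cldn2, known for its cation-permeable pores in leaky epithelia such as the proximal tubule, moved in opposite directions at low levels. Cldn2 had 0.787, 0.638, 0.755 and 0.861 TPM in LC-DTA croton oil ears, against 2.02, 3.54 and 1.70 TPM in LC-DTA vehicle ears. In LC-DTR, Cldn2 had 4.95, 6.93, 6.41 and 5.29 TPM in croton oil ears, against 3.58, 3.41 and 1.93 TPM in vehicle ears. In LC-DTA the croton oil samples lay below the vehicle samples, and in LC-DTR above them. For Cldn2 the log2 difference was -0.92 ± 0.18 (adjusted p = 0.000775) in LC-DTA and 0.81 ± 0.18 (adjusted p = 0.00241) in LC-DTR by limma. Cldn3, another claudin of simple epithelia, had 3.82, 2.70, 3.72 and 3.48 TPM in LC-DTA croton oil ears, against 6.82, 8.23 and 7.08 TPM in LC-DTA vehicle ears. It fell in LC-DTA (-0.92 ± 0.18 with adjusted p = 0.000762, limma). In LC-DTR, Cldn3 had 10.5, 7.92, 7.47 and 8.89 TPM in croton oil ears, against 9.09, 10.8 and 5.18 TPM in vehicle ears, and these overlapped (0.10 ± 0.18 with adjusted p = 0.686, limma). Cldn8 had 1.23, 1.21, 0.997 and 0.796 TPM in LC-DTA croton oil ears, against 2.96, 3.95 and 3.02 TPM in LC-DTA vehicle ears. In LC-DTR, Cldn8 had 0.319, 1.55, 1.27 and 0.710 TPM in croton oil ears, against 5.69, 4.98 and 4.79 TPM in vehicle ears. Cldn8, a claudin of the distal nephron that limits cation flow, fell in both genotypes without overlap, with log2 differences of -1.06 ± 0.18 (adjusted p = 0.000275) in LC-DTA and -1.69 ± 0.18 (adjusted p = 1.33e-05) in LC-DTR by limma.

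Cldn5, the main claudin of endothelium, fell in both genotypes. Cldn5 had 20.4, 12.8, 13.6 and 12.1 TPM in LC-DTA croton oil ears, against 34.2, 35.7 and 31.3 TPM in LC-DTA vehicle ears. In LC-DTR, Cldn5 had 17.2, 20.5, 19.1 and 16.7 TPM in croton oil ears, against 27.4, 27.9 and 34.5 TPM in vehicle ears. Neither genotype had overlapping groups, and the log2 difference was -1.17 ± 0.15 (adjusted p = 1.96e-05) in LC-DTA and -0.67 ± 0.15 (adjusted p = 0.00178) in LC-DTR by limma. In LC-DTA, where 34.5% of all genes fell, 6 of 8 endothelial markers fell. In LC-DTR, where 29.5% of all genes fell and 22.1% rose, 1 of these markers fell and 2 rose. Their summed level ranged from 144 to 180.0 TPM in LC-DTA croton oil ears, 202 to 224 TPM in LC-DTA vehicle ears, 115 to 145 TPM in LC-DTR croton oil ears and 107 to 130.0 TPM in LC-DTR vehicle ears, and none was at 0. Gja4, a connexin of arterial endothelium, fell in LC-DTA. Gja4 had 2.56, 3.61, 2.47 and 3.28 TPM in LC-DTA croton oil ears, against 4.34, 5.44 and 4.81 TPM in LC-DTA vehicle ears. In LC-DTR, Gja4 had 3.40, 3.23, 4.36 and 2.79 TPM in croton oil ears, against 3.91, 3.61 and 5.98 TPM in vehicle ears. Its log2 difference was -0.56 ± 0.16 (adjusted p = 0.00757) in LC-DTA and -0.29 ± 0.16 (adjusted p = 0.137) in LC-DTR by limma. The part of endothelial RNA in these results was not tested.

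Cldn19, known from Schwann cells and the kidney, fell in LC-DTA. Cldn19 had 3.18, 4.56, 3.80 and 5.89 TPM in LC-DTA croton oil ears, against 6.54, 8.79 and 8.38 TPM in LC-DTA vehicle ears. In LC-DTR, Cldn19 had 2.83, 2.15, 3.32 and 1.88 TPM in croton oil ears, against 4.81, 2.56 and 3.71 TPM in vehicle ears. Its log2 difference was -0.75 ± 0.20 (adjusted p = 0.00526) in LC-DTA and -0.39 ± 0.20 (adjusted p = 0.111) in LC-DTR by limma. The LC-DTR value passed without LC-DTR vehicle sample 2 (log2 difference -0.58, limma adjusted p = 0.0322). Schwann cell markers fell in 5 of 8 cases in LC-DTA (34.5% of all genes) and in 0 of 8 in LC-DTR (29.5% of all genes). Their summed level ranged from 449.7 to 579.7 TPM in LC-DTA croton oil ears, 701 to 840.2 TPM in LC-DTA vehicle ears, 374 to 501 TPM in LC-DTR croton oil ears and 351 to 526 TPM in LC-DTR vehicle ears, none was at 0, and their part in the Cldn19 result was not tested. Cldn10 had 2.26, 2.64, 2.29 and 2.90 TPM in LC-DTA croton oil ears, against 4.34, 6.61 and 5.21 TPM in LC-DTA vehicle ears. In LC-DTR, Cldn10 had 5.40, 2.12, 2.64 and 2.38 TPM in croton oil ears, against 4.12, 2.15 and 2.26 TPM in vehicle ears. Cldn10, an ion-selective claudin, fell in LC-DTA (-0.85 ± 0.23 with adjusted p = 0.00625, limma) and overlapped in LC-DTR (0.08 ± 0.23 with adjusted p = 0.794), where sample 1 of the croton oil group lay far above the other 3.

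Among the desmosomal cadherins Dsg3 showed the highest rise in LC-DTR. Dsg3 had 213, 250.4, 284 and 272 TPM in LC-DTA croton oil ears, against 78.1, 89.1 and 76.7 TPM in LC-DTA vehicle ears. In LC-DTR, Dsg3 had 253, 166, 155 and 266 TPM in croton oil ears, against 86.2, 82.2 and 74.8 TPM in vehicle ears. The groups did not overlap, and LC-DTR croton oil samples 2 and 3 lay below samples 1 and 4. Dsg3 had a log2 difference of 1.63 ± 0.17 (adjusted p = 5.23e-06) in LC-DTA and 1.32 ± 0.17 (adjusted p = 3.83e-05) in LC-DTR by limma. The LC-DTR value without those 2 samples was 1.67 ± 0.11 (adjusted p = 1.29e-06). Dsg3 made up 28.9 ± 3.08% of desmoglein TPM in LC-DTA croton oil and 10.01 ± 0.291% in LC-DTA vehicle ears. The LC-DTR shares were 24.9 ± 7.01% after croton oil and 7.98 ± 0.613% under vehicle.

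Dsg1a had 465, 495, 454 and 579 TPM in LC-DTA croton oil ears, against 621, 666 and 570.2 TPM in LC-DTA vehicle ears. In LC-DTR, Dsg1a had 469, 595, 578 and 504 TPM in croton oil ears, against 834, 787 and 824 TPM in vehicle ears. Dsg1a, a desmoglein of the upper layers, fell in both genotypes, with an overlap between LC-DTA croton oil sample 4 and the vehicle samples. Its log2 difference was -0.32 ± 0.10 (adjusted p = 0.0121) in LC-DTA and -0.61 ± 0.10 (adjusted p = 0.000198) in LC-DTR by limma. The Dsg1a call was lost without LC-DTA vehicle sample 2 (log2 difference -0.26, limma adjusted p = 0.0624). Dsg1b had 103, 127, 95.6 and 106 TPM in LC-DTA croton oil ears, against 74.3, 84.2 and 78.5 TPM in LC-DTA vehicle ears. In LC-DTR, Dsg1b had 78.02, 77.9, 85.1 and 66.6 TPM in croton oil ears, against 83.1, 82.8 and 94.01 TPM in vehicle ears. Its near copy Dsg1b rose in LC-DTA (0.44 ± 0.10 with adjusted p = 0.00171, limma) and did not pass in LC-DTR (-0.17 ± 0.10 with adjusted p = 0.152). Reads shared between these copies may be divided differently, so their opposite signs in LC-DTA are uncertain. Dsg1c ranged from 4.85 to 11.8 TPM and was called in neither genotype. Dsg2 had 15.5, 15.01, 12.6 and 16.1 TPM in LC-DTA croton oil ears, against 24.7, 25.6 and 25.9 TPM in LC-DTA vehicle ears. In LC-DTR, Dsg2 had 13.7, 17.6, 15.8 and 13.6 TPM in croton oil ears, against 24.4, 19.6 and 28.3 TPM in vehicle ears. Dsg2, which is found in desmosomes of most epithelia and of heart, fell in both genotypes, with log2 differences of -0.74 ± 0.12 (adjusted p = 0.000152) in LC-DTA and -0.63 ± 0.12 (adjusted p = 0.000726) in LC-DTR by limma.

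The 3 desmocollins gave different calls in the 2 genotypes. Dsc2 had 19.02, 23.4, 18.2 and 19.4 TPM in LC-DTA croton oil ears, against 5.69, 5.35 and 5.56 TPM in LC-DTA vehicle ears. In LC-DTR, Dsc2 had 11.5, 9.85, 12.8 and 10.6 TPM in croton oil ears, against 10.4, 11.2 and 5.77 TPM in vehicle ears. Dsc2, the desmocollin of simple epithelia and heart as well as skin, rose in LC-DTA (1.68 ± 0.17 with adjusted p = 3.97e-06, limma). The LC-DTR groups overlapped (0.31 ± 0.17 with adjusted p = 0.137), and the vehicle samples there were spread, with sample 3 lowest. The LC-DTR value passed without LC-DTR vehicle sample 2 (log2 difference 0.46, limma adjusted p = 0.0377). Dsc3 had 629, 684, 639 and 701 TPM in LC-DTA croton oil ears, against 655, 701 and 611 TPM in LC-DTA vehicle ears. In LC-DTR, Dsc3 had 552, 595, 609 and 585 TPM in croton oil ears, against 816, 784 and 721 TPM in vehicle ears. Dsc3 fell in LC-DTR (-0.40 ± 0.07 with adjusted p = 0.000255, limma), while the LC-DTA groups overlapped (0.02 ± 0.07 with adjusted p = 0.835). In LC-DTA, where 24.2% of all genes rose and 34.5% fell, 2 of 6 basal keratinocyte markers rose and 3 fell. In LC-DTR, where 22.1% of all genes rose and 29.5% fell, 1 of these markers rose and 4 fell. Their summed level ranged from 11117 to 13121 TPM in LC-DTA croton oil ears, 13818 to 13959.6 TPM in LC-DTA vehicle ears, 7932 to 10232 TPM in LC-DTR croton oil ears and 14526 to 16363 TPM in LC-DTR vehicle ears, none was at 0, and their part in the Dsc3 result was not tested. Dsc1 had 286, 339.8, 291 and 370.0 TPM in LC-DTA croton oil ears, against 270.2, 275 and 254 TPM in LC-DTA vehicle ears. In LC-DTR, Dsc1 had 306, 389, 345 and 327 TPM in croton oil ears, against 384, 351 and 432 TPM in vehicle ears. Dsc1, of the upper epidermis, rose in LC-DTA (0.26 ± 0.10 with adjusted p = 0.0389, limma) and overlapped in LC-DTR (-0.19 ± 0.10 with adjusted p = 0.143). The LC-DTR value passed, as a fall, without LC-DTR croton oil samples 2 and 3 (-0.29 ± 0.11 with adjusted p = 0.0483) and with quantile normalization (-0.28, adjusted p = 0.0355). In LC-DTA the call, but not the direction of the difference, depended on single samples. The Dsc1 call was lost without each of LC-DTA croton oil sample 2, LC-DTA croton oil sample 4, LC-DTA vehicle sample 1, LC-DTA vehicle sample 2 and LC-DTA vehicle sample 3 in turn, at log2 differences of 0.19 to 0.29 and limma adjusted p of 0.0621 to 0.122. That call was also lost with quantile normalization (0.19, adjusted p = 0.125), with no filter (adjusted p = 0.0575) and without LC-DTA croton oil samples 3 and 4 (0.23, adjusted p = 0.119). The replicate block ended it too (0.24, adjusted p = 0.0847).

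The connexin Gjb2, whose human gene is mutated in inherited deafness with or without skin disease, had the highest log2 difference of the members in both genotypes, on TPM + 1, where the change of less abundant members is understated. Gjb2 had 259, 373, 266 and 182 TPM in LC-DTA croton oil ears, against 75.5, 59.1 and 65.2 TPM in LC-DTA vehicle ears. In LC-DTR, Gjb2 had 184, 134, 134 and 194 TPM in croton oil ears, against 32.8, 47.1 and 55.4 TPM in vehicle ears. Its croton oil values lay far above the vehicle values, and were spread in LC-DTA. The log2 difference was 1.97 ± 0.22 (adjusted p = 9.85e-06) in LC-DTA and 1.83 ± 0.22 (adjusted p = 2.78e-05) in LC-DTR by limma, or 3.91-fold and 3.55-fold on TPM + 1. Leaving out LC-DTR croton oil samples 2 and 3 gave 2.08 ± 0.25 (adjusted p = 4.96e-05). Gjb6, its neighbour on chromosome 14, rose in LC-DTA. Gjb6 had 17.4, 20.2, 14.4 and 9.38 TPM in LC-DTA croton oil ears, against 4.00, 3.51 and 3.66 TPM in LC-DTA vehicle ears. In LC-DTR, Gjb6 had 6.49, 6.42, 7.09 and 6.61 TPM in croton oil ears, against 2.89, 4.41 and 8.76 TPM in vehicle ears. Gjb6 had a log2 difference of 1.74 ± 0.26 (adjusted p = 8.34e-05) in LC-DTA and 0.37 ± 0.26 (adjusted p = 0.246) in LC-DTR by limma, and the LC-DTR groups overlapped, with vehicle sample 3 above its croton oil samples. The LC-DTR value passed without LC-DTR vehicle sample 3 (log2 difference 0.74, limma adjusted p = 0.0149). Gja3, next to them and better known from the lens, stayed between 0.520 and 1.94 TPM. It fell in LC-DTA (-0.45 ± 0.15 with adjusted p = 0.0196, limma). The Gja3 call was lost without LC-DTA vehicle sample 2 (log2 difference -0.38, limma adjusted p = 0.0877). The adjusted p was 0.0842 with quantile normalization, 0.0513 with the replicate block and 0.0904 without LC-DTA croton oil samples 3 and 4. In LC-DTR, Gja3 did not pass (-0.21 ± 0.15 with adjusted p = 0.269), but it did without croton oil samples 2 and 3 (-0.44 ± 0.15 with adjusted p = 0.0282).

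Gja1 had 304, 358, 375 and 348 TPM in LC-DTA croton oil ears, against 121, 103 and 125 TPM in LC-DTA vehicle ears. In LC-DTR, Gja1 had 229, 167, 198 and 241 TPM in croton oil ears, against 87.3, 98.1 and 132 TPM in vehicle ears. Gja1, the most widely expressed connexin of the body and of basal and spinous keratinocytes, rose in both genotypes without overlap, by 1.56 ± 0.14 (adjusted p = 2.51e-06) in LC-DTA and 0.98 ± 0.14 (adjusted p = 0.000102) in LC-DTR on the log2 scale (limma). Its LC-DTR value without croton oil samples 2 and 3 was 1.17 ± 0.15 (adjusted p = 6.65e-05).

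Gjb5 had 79.8, 81.7, 93.9 and 99.4 TPM in LC-DTA croton oil ears, against 127, 123 and 126 TPM in LC-DTA vehicle ears. In LC-DTR, Gjb5 had 97.4, 107, 113 and 98.3 TPM in croton oil ears, against 142, 153 and 151 TPM in vehicle ears. Gjb5, a connexin known from epidermis and placenta, fell in both (-0.50 ± 0.08 with adjusted p = 0.000105 in LC-DTA and -0.52 ± 0.08 with adjusted p = 0.000133 in LC-DTR, limma). The groups did not overlap in either genotype.

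Low connexins changed as well. Gjb1, the connexin of liver and of myelinating Schwann cells, rose in LC-DTA. Gjb1 had 3.79, 3.59, 5.07 and 3.70 TPM in LC-DTA croton oil ears, against 1.55, 1.53 and 1.81 TPM in LC-DTA vehicle ears. In LC-DTR, Gjb1 had 1.49, 1.33, 1.42 and 1.14 TPM in croton oil ears, against 1.58, 0.739 and 0.812 TPM in vehicle ears. Gjb1 had a log2 difference of 0.93 ± 0.14 (adjusted p = 8.19e-05) in LC-DTA and 0.22 ± 0.14 (adjusted p = 0.201) in LC-DTR by limma. The LC-DTR value passed without LC-DTR vehicle sample 1 (log2 difference 0.40, limma adjusted p = 0.0173). Gjc1 and Gjc3 were called in neither genotype. Gjc3 passed in LC-DTA without croton oil sample 4 (log2 difference -0.49, limma adjusted p = 0.0262) and in LC-DTR without vehicle sample 2 (-0.46, adjusted p = 0.0487). With quantile normalization Gjc1 passed in LC-DTR (0.39, adjusted p = 0.0237).

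Whether the response to croton oil differed between the genotypes was tested directly, as the LC-DTA difference minus the LC-DTR difference. The test called 6 members with a higher response in LC-DTA and 4 with a lower one, where 10.5% and 12.6% of all genes were called (23.1% in either direction). The 3 desmocollins, Dsg1b, Gjb1 and Gjb6 had the higher response in LC-DTA. Cldn2, Cldn3 and Cldn4 were among those with the lower one. The median over the members was -0.08 and over all genes -0.02.

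For Cldn2 the difference of responses was -1.73 ± 0.26 (adjusted p = 0.00093) and for Cldn3 -1.02 ± 0.26 (adjusted p = 0.014), by limma. As given above, Cldn2 rose in LC-DTR, and the LC-DTR groups of Cldn3 overlapped. For Cldn4, which rose in both genotypes, it was -0.57 ± 0.18 (adjusted p = 0.0353). The Cldn4 call was lost without each of LC-DTA croton oil sample 2, LC-DTA croton oil sample 4, LC-DTA vehicle sample 1, LC-DTA vehicle sample 2, LC-DTA vehicle sample 3, LC-DTR croton oil sample 2, LC-DTR croton oil sample 4, LC-DTR vehicle sample 1 and LC-DTR vehicle sample 3 in turn, at log2 differences of -0.61 to -0.41 and limma adjusted p of 0.0513 to 0.0792. Its adjusted p was also 0.0572 with no filter, 0.0583 with median ratio scaling and 0.0599 with the replicate block. It was 0.106 without LC-DTA croton oil samples 3 and 4, and 0.05 without LC-DTR croton oil samples 2 and 3.

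Dsc2 gave a difference of responses of 1.37 ± 0.23 (adjusted p = 0.00179), Dsc3 0.42 ± 0.09 (adjusted p = 0.00713) and Dsg1b 0.61 ± 0.14 (adjusted p = 0.00762), by limma. Gjb6 gave 1.37 ± 0.37 (adjusted p = 0.0179) and Gjb1 0.71 ± 0.20 (adjusted p = 0.0201). The Gjb1 call was lost without LC-DTA vehicle sample 2 (log2 difference 0.68, limma adjusted p = 0.0518). A pseudocount of 0.1 (0.84, adjusted p = 0.0648) and dropping both LC-DTA croton oil samples 3 and 4 (0.62, adjusted p = 0.062) ended it too. Dsc1 gave 0.45 ± 0.14 (adjusted p = 0.038). The Dsc1 call was lost without each of LC-DTA croton oil sample 2, LC-DTA croton oil sample 4, LC-DTA vehicle sample 1, LC-DTA vehicle sample 2, LC-DTA vehicle sample 3, LC-DTR croton oil sample 1, LC-DTR croton oil sample 3, LC-DTR croton oil sample 4, LC-DTR vehicle sample 1 and LC-DTR vehicle sample 3 in turn, at log2 differences of 0.37 to 0.47 and limma adjusted p of 0.0507 to 0.0912. It was also not called with no filter (adjusted p = 0.0584), with the replicate block (adjusted p = 0.0566) or without LC-DTA croton oil samples 3 and 4 (adjusted p = 0.0776).

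**Figure D3:**
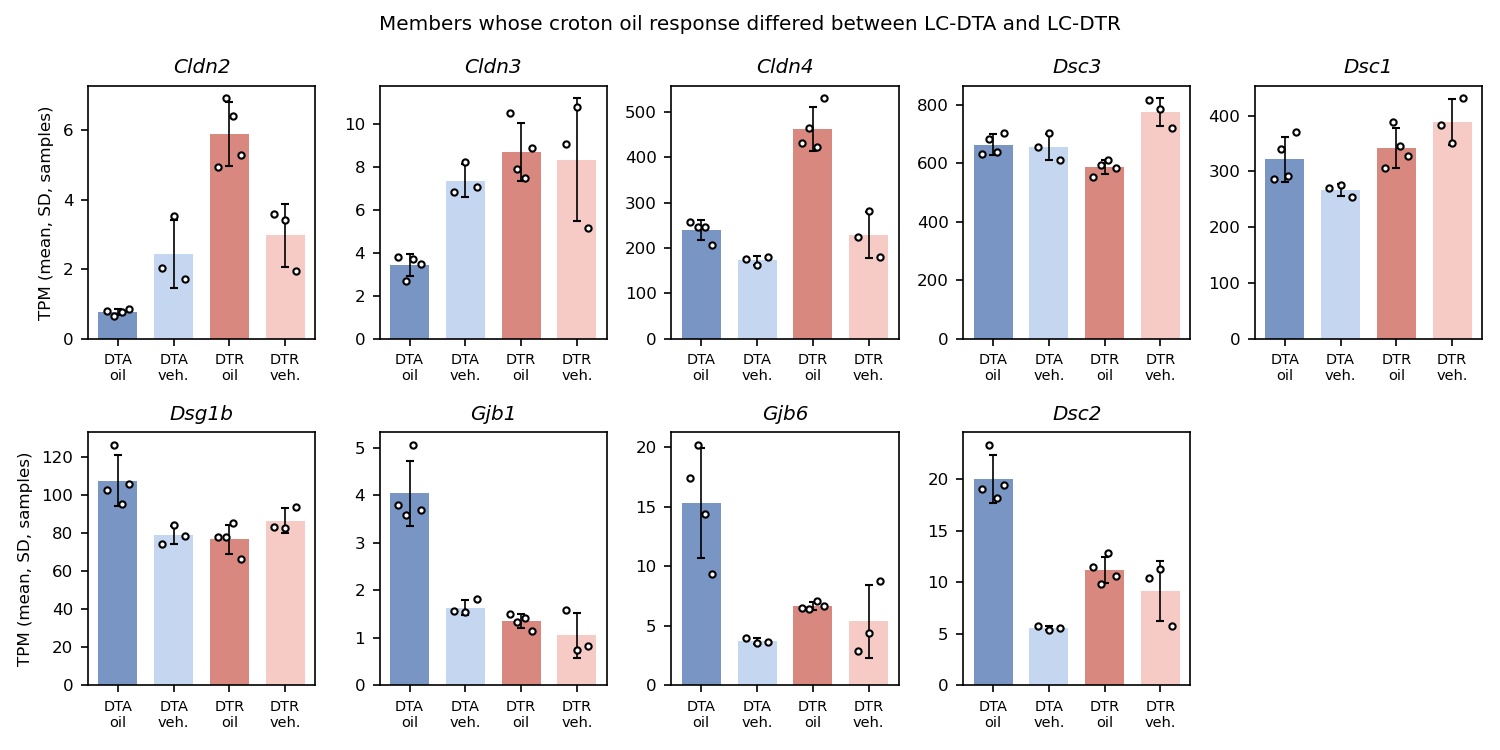
TPM of 9 of the 10 members whose response to croton oil differed between LC-DTA and LC-DTR, with bars for group means, error bars for SD and open points for samples. For Cldn2 the LC-DTA croton oil bar is the lowest of the 4, at 0.760 ± 0.0927 TPM, and the LC-DTR croton oil bar the highest, at 5.89 ± 0.929 TPM; for Dsc2 and Gjb6 the LC-DTA croton oil bar is the highest.

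For Gjb2 and Dsg3, which rose in both genotypes, the difference of responses did not pass. It was 0.14 ± 0.31 (adjusted p = 0.778) for Gjb2 and 0.31 ± 0.24 (adjusted p = 0.367) for Dsg3 by limma, and for Dsg3 -0.04 ± 0.15 (adjusted p = 0.877) without LC-DTR croton oil samples 2 and 3. Gja1 missed narrowly at 0.58 ± 0.20 (adjusted p = 0.0517). It passed without each of LC-DTA croton oil sample 1, LC-DTR croton oil sample 1, LC-DTR croton oil sample 4 and LC-DTR vehicle sample 1 in turn, at limma adjusted p of 0.0238 to 0.0472. Gja1 also passed with quantile normalization (0.60, adjusted p = 0.045) and narrowly with the replicate block (0.58, adjusted p = 0.0494). Several other members passed when 1 ear was left out. Cldn1 gave -0.28 ± 0.13 (adjusted p = 0.141). It passed without LC-DTR croton oil sample 3 (log2 difference -0.37, limma adjusted p = 0.0254). For Cldn10 the value was -0.93 ± 0.33 (adjusted p = 0.0547). It passed without each of LC-DTR croton oil sample 2 and LC-DTR vehicle sample 1 in turn, at limma adjusted p of 0.0204 to 0.0408. Cldn5 gave -0.50 ± 0.21 (adjusted p = 0.0933). It passed without LC-DTA croton oil sample 1 (log2 difference -0.66, limma adjusted p = 0.00674). For Cldn8 it was 0.63 ± 0.26 (adjusted p = 0.0979). It passed without LC-DTR croton oil sample 2 (log2 difference 0.77, limma adjusted p = 0.0373). Leaving out both LC-DTR croton oil samples 2 and 3 let Cldn8, Cldn10, Cldn1 and Dsg1a pass. The values were then 0.97 ± 0.20 (adjusted p = 0.00642) for Cldn8, -1.16 ± 0.35 (adjusted p = 0.0353) for Cldn10 and -0.34 ± 0.11 (adjusted p = 0.0499) for Cldn1. Dsg1a gave 0.29 ± 0.14 (adjusted p = 0.137) with all ears and 0.43 ± 0.13 (adjusted p = 0.0382) without those 2.

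Under vehicle, LC-DTA and LC-DTR ears differed in 12 members. Of the 32 tested, 5 were higher in LC-DTA and 7 lower, where 19.1% of all genes were higher and 5.34% lower (24.5% in either direction). With quantile normalization 3 were higher and 9 lower, and with median ratio scaling 4 and 9. The median over the members was -0.06 and over all genes 0.10. The lower genes were Cldn1, Cldn23, Dsg1a, the 3 desmocollins and Gjb5. Keratinocytes are known to express them, but several, such as Dsc2 and Gjb5, are also known from other tissues. The higher genes included Cldn10, Cldn19, Gjc1 and Gjc3, each below 10 TPM in every sample. Marker lists also differed: 6 of 6 fibroblast, 6 of 8 Schwann cell, 5 of 8 endothelial and 2 of 3 tested Langerhans cell markers were higher in LC-DTA, and 3 of 7 suprabasal keratinocyte markers lower. Among 6 basal keratinocyte markers, 1 was higher in LC-DTA and 0 were lower. Fibroblast markers summed to 3508 to 4807 TPM in LC-DTA croton oil ears, 5609 to 6943 TPM in LC-DTA vehicle ears, 2154 to 3050.0 TPM in LC-DTR croton oil ears and 2015 to 3865 TPM in LC-DTR vehicle ears. Suprabasal markers summed to 24164 to 27592 TPM in LC-DTA croton oil ears, 26236 to 28559.5 TPM in LC-DTA vehicle ears, 27805 to 32154 TPM in LC-DTR croton oil ears and 33571 to 40159 TPM in LC-DTR vehicle ears. No fibroblast or suprabasal marker was at 0, and the part of these differences in the members' results was not tested.

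Cldn23 was lower in LC-DTA vehicle ears, at 53.1 ± 1.35 TPM, than in LC-DTR vehicle ears, at 77.4 ± 8.81 TPM, without overlap (-0.53 ± 0.11 with adjusted p = 0.00422, limma). Cldn1 averaged 284 ± 4.58 TPM in LC-DTA and 371 ± 32.9 TPM in LC-DTR vehicle ears (-0.38 ± 0.10 with adjusted p = 0.0143, limma). The Cldn1 call was lost without LC-DTR vehicle sample 2 (log2 difference -0.32, limma adjusted p = 0.0755). Dsc1 averaged 266 ± 11.3 TPM in LC-DTA and 389 ± 40.8 TPM in LC-DTR vehicle ears (-0.54 ± 0.11 with adjusted p = 0.00383, limma). Dsg1a averaged 619 ± 48.02 TPM in LC-DTA and 815 ± 24.8 TPM in LC-DTR vehicle ears (-0.40 ± 0.10 with adjusted p = 0.0134, limma). The Dsg1a call was lost without LC-DTA vehicle sample 3 (log2 difference -0.34, limma adjusted p = 0.0653). None of these 4 genes overlapped between the genotypes.

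For the other members that were lower in LC-DTA under vehicle, the calls were lost when single samples were left out. The differences kept their sign. Dsc3 had a log2 difference of -0.24 ± 0.07 (adjusted p = 0.0252) by limma. The Dsc3 call was lost without each of LC-DTA vehicle sample 1, LC-DTA vehicle sample 3, LC-DTR vehicle sample 1 and LC-DTR vehicle sample 2 in turn, at log2 differences of -0.24 to -0.19 and limma adjusted p of 0.0639 to 0.118. For Dsc2 it was -0.59 ± 0.18 (adjusted p = 0.0276). The Dsc2 call was lost without each of LC-DTA vehicle sample 1, LC-DTA vehicle sample 2, LC-DTA vehicle sample 3, LC-DTR vehicle sample 1 and LC-DTR vehicle sample 2 in turn, at log2 differences of -0.60 to -0.43 and limma adjusted p of 0.0594 to 0.138. Gjb5 gave -0.24 ± 0.08 (adjusted p = 0.0466). The Gjb5 call was lost without each of LC-DTA croton oil sample 3, LC-DTA vehicle sample 1, LC-DTA vehicle sample 2, LC-DTA vehicle sample 3, LC-DTR croton oil sample 4, LC-DTR vehicle sample 1, LC-DTR vehicle sample 2 and LC-DTR vehicle sample 3 in turn, at log2 differences of -0.27 to -0.22 and limma adjusted p of 0.0503 to 0.144. It was also not called with no filter (adjusted p = 0.0592) or with the replicate block (adjusted p = 0.0574).

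Gjc1, a connexin of smooth muscle and of the embryonic heart, averaged 7.43 ± 0.764 TPM in LC-DTA and 3.79 ± 0.833 TPM in LC-DTR vehicle ears (0.83 ± 0.16 with adjusted p = 0.00286, limma). Smooth muscle and pericyte markers were higher in LC-DTA in 3 of 7 cases, against 19.1% of all genes. Cldn19 averaged 7.91 ± 1.20 TPM in LC-DTA and 3.69 ± 1.13 TPM in LC-DTR vehicle ears (0.94 ± 0.21 with adjusted p = 0.00659, limma). These 2 did not overlap between the genotypes. Gjc3, a connexin of glia including Schwann cells, gave 0.61 ± 0.19 (adjusted p = 0.0298). The Gjc3 call was lost without each of LC-DTA vehicle sample 2, LC-DTA vehicle sample 3, LC-DTR vehicle sample 2 and LC-DTR vehicle sample 3 in turn, at log2 differences of 0.45 to 0.61 and limma adjusted p of 0.0555 to 0.144. With quantile normalization its adjusted p was 0.0959, and with the replicate block it was 0.065. Cldn10 gave 0.75 ± 0.25 (adjusted p = 0.0392). The Cldn10 call was lost without each of LC-DTA croton oil sample 2, LC-DTA vehicle sample 2, LC-DTA vehicle sample 3, LC-DTR vehicle sample 2 and LC-DTR vehicle sample 3 in turn, at log2 differences of 0.62 to 0.77 and limma adjusted p of 0.0506 to 0.152. No filter (adjusted p = 0.0645), median ratio scaling (0.0583), quantile normalization (0.121), the replicate block (0.0591) and dropping both LC-DTA croton oil samples 3 and 4 (0.0586) ended the Cldn10 call as well. Cldn4 did not pass, at -0.38 ± 0.14 (adjusted p = 0.0555). It passed without each of LC-DTR croton oil sample 4 and LC-DTR vehicle sample 3 in turn, at limma adjusted p of 0.00683 to 0.0499. With median ratio scaling it also passed (-0.48, adjusted p = 0.0342). Cldn8 did not pass either, at -0.52 ± 0.20 (adjusted p = 0.0711), but it did without LC-DTR croton oil samples 2 and 3 (-0.52 ± 0.14 with adjusted p = 0.0157) and with median ratio scaling (-0.60, adjusted p = 0.0416). Gjb2 lay higher in LC-DTA vehicle ears without overlap but did not pass, at 0.58 ± 0.24 (adjusted p = 0.091, limma). Without LC-DTR vehicle sample 3 Gjb2 passed (0.74, adjusted p = 0.0488).

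After croton oil, 9 members were higher in LC-DTA than in LC-DTR and 8 lower, where 34.3% of all genes were higher and 18.0% lower (52.3% in either direction). This comparison uses the same croton oil ears as the responses above. Of the 12 claudins tested, 6 were lower (Cldn1, Cldn2, Cldn3, Cldn4, Cldn23 and Cldn25) and 1 higher (Cldn19). The median over the claudins was -0.25, against 0.09 over all genes. Of the 12 connexins tested, 5 were higher (Gja1, Gjb1, Gjb2, Gjb6 and Gjc3) and 2 lower, among them Gjb5. The higher desmosomal cadherins were Dsc2, Dsc3 and Dsg1b. Summed claudin TPM averaged 752 ± 10.3 in LC-DTA and 1214 ± 104 in LC-DTR croton oil ears. These sums include Cldn25, whose identity is open, at means of 108 TPM in LC-DTA and 121 TPM in LC-DTR. Summed connexin TPM averaged 1294 ± 73.2 in LC-DTA and 1112 ± 80.7 in LC-DTR croton oil ears. Suprabasal keratinocyte markers were lower in LC-DTA in 4 of 7 cases and fibroblast markers higher in 5 of 6. Among 6 basal keratinocyte markers, 2 were higher in LC-DTA and 0 were lower.

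**Figure D4:**
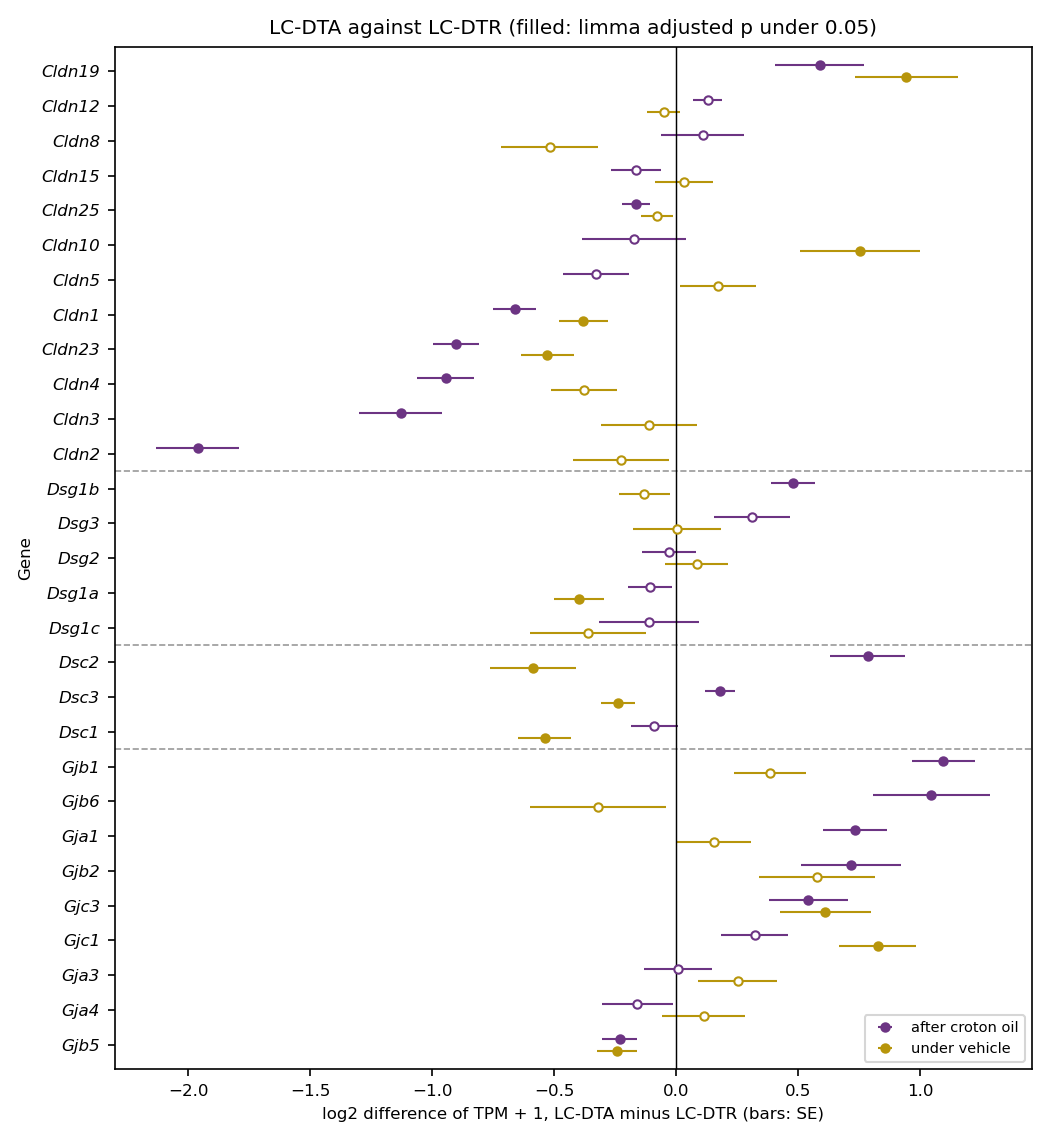
log2 difference of TPM + 1, LC-DTA minus LC-DTR, with its SE for 29 of the 32 tested members by family, after croton oil above under vehicle in each row, with filled points at a limma adjusted p under 0.05. Cldn2 lies farthest to the left after croton oil at -1.96, and Gjb1 and Gjb6 farthest to the right at 1.10 and 1.05.

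Cldn2 averaged 0.760 ± 0.0927 TPM in LC-DTA and 5.89 ± 0.929 TPM in LC-DTR croton oil ears (-1.96 ± 0.17 with adjusted p = 2.99e-06, limma). Cldn4 averaged 239.7 ± 22.6 TPM in LC-DTA and 463 ± 49.3 TPM in LC-DTR croton oil ears (-0.94 ± 0.12 with adjusted p = 2.96e-05, limma). Cldn1 averaged 327 ± 23.99 TPM in LC-DTA and 519.5 ± 65.4 TPM in LC-DTR (-0.66 ± 0.09 with adjusted p = 4.57e-05, limma), and no LC-DTA sample reached the lowest LC-DTR one in these 3 genes. Cldn23 (-0.90 ± 0.09 with adjusted p = 9.75e-06) and Cldn3 (-1.13 ± 0.17 with adjusted p = 0.000121) also did not overlap. When LC-DTR croton oil samples 2 and 3 were dropped, the values were -1.80 ± 0.21 (adjusted p = 0.000114) for Cldn2 and -1.0 ± 0.15 (adjusted p = 0.000407) for Cldn4. Cldn19 gave 0.59 ± 0.18 (adjusted p = 0.0155) by limma. The Cldn19 call was lost without each of LC-DTA croton oil sample 4 and LC-DTR croton oil sample 4 in turn, at log2 differences of 0.46 to 0.50 and limma adjusted p of 0.0503 to 0.053. Without LC-DTA croton oil samples 3 and 4 its adjusted p was 0.106. Cldn25 gave -0.17 ± 0.06 (adjusted p = 0.026). The Cldn25 call was lost without each of LC-DTA croton oil sample 1, LC-DTA croton oil sample 3 and LC-DTR croton oil sample 2 in turn, at log2 differences of -0.15 to -0.13 and limma adjusted p of 0.069 to 0.0782. Dropping LC-DTR croton oil samples 2 and 3 gave -0.12 ± 0.07 (adjusted p = 0.152). Cldn8 gave 0.11 ± 0.17 (adjusted p = 0.616) with all ears and passed without those samples at 0.45 ± 0.14 (adjusted p = 0.0246). Cldn5 missed narrowly at -0.33 ± 0.13 (adjusted p = 0.0543, limma). It passed without each of LC-DTA croton oil sample 1 (adjusted p = 0.00114) and LC-DTR vehicle sample 3 (adjusted p = 0.0466) in turn. Median ratio scaling (-0.42, adjusted p = 0.0242) and quantile normalization (-0.44, adjusted p = 0.0216) also let Cldn5 pass.

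Dsc2 averaged 19.99 ± 2.30 TPM in LC-DTA and 11.2 ± 1.27 TPM in LC-DTR croton oil ears, so that it was lower in LC-DTA under vehicle and higher after croton oil (0.79 ± 0.15 with adjusted p = 0.000822, limma). Dsg1b averaged 108 ± 13.4 TPM in LC-DTA and 76.9 ± 7.64 TPM in LC-DTR croton oil ears (0.48 ± 0.09 with adjusted p = 0.00064, limma). Dsc3 gave 0.18 ± 0.06 (adjusted p = 0.0242). The Dsc3 call was lost without each of LC-DTA croton oil sample 2, LC-DTA croton oil sample 4 and LC-DTR croton oil sample 1 in turn, at log2 differences of 0.15 to 0.16 and limma adjusted p of 0.0664 to 0.0716. With median ratio scaling it was 0.09 (adjusted p = 0.222), and without LC-DTA croton oil samples 3 and 4 it was 0.17 ± 0.08 (adjusted p = 0.108). Dsg3 gave 0.31 ± 0.15 (adjusted p = 0.107). It passed without each of LC-DTR croton oil sample 1 and LC-DTR croton oil sample 4 in turn, at limma adjusted p of 0.0258 to 0.0421. Without LC-DTR croton oil samples 2 and 3, both low for Dsg3, the value was -0.03 ± 0.11 (adjusted p = 0.82).

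Gjb1 averaged 4.04 ± 0.693 TPM in LC-DTA and 1.35 ± 0.153 TPM in LC-DTR croton oil ears (1.10 ± 0.13 with adjusted p = 2.07e-05, limma). Gjb6 averaged 15.3 ± 4.64 TPM in LC-DTA and 6.65 ± 0.305 TPM in LC-DTR croton oil ears (1.05 ± 0.24 with adjusted p = 0.00259, limma). Gja1 averaged 346 ± 30.3 TPM in LC-DTA and 209 ± 33.2 TPM in LC-DTR croton oil ears (0.74 ± 0.13 with adjusted p = 0.000441, limma). These 3 did not overlap. The Gja1 value without LC-DTR croton oil samples 2 and 3 was 0.55 ± 0.14 (adjusted p = 0.008). Gjb2 overlapped between the genotypes (0.72 ± 0.20 with adjusted p = 0.00974, limma), and without those samples it was 0.47 ± 0.24 (adjusted p = 0.133). Gjc3 gave 0.54 ± 0.16 (adjusted p = 0.0127), and without LC-DTA croton oil samples 3 and 4 it was 0.43 ± 0.19 (adjusted p = 0.0847). Gjb5 gave -0.23 ± 0.07 (adjusted p = 0.0155). The Gjb5 call was lost without LC-DTA croton oil sample 2 (log2 difference -0.19, limma adjusted p = 0.0548). Without LC-DTR croton oil samples 2 and 3 it was -0.15 ± 0.08 (adjusted p = 0.167).

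Other junction genes were read beside the members, where 58.7% of all genes were called after croton oil in LC-DTA and 51.6% in LC-DTR. Of 16 tight junction partners, 5 rose and 8 fell in LC-DTA (81.2% called), and 4 rose and 5 fell in LC-DTR (56.2%, near the share of all genes). Tjp3, a scaffold protein of tight junctions, fell in both (log2 difference -1.27 ± 0.09 with adjusted p = 8.54e-07 in LC-DTA and -0.93 ± 0.09 with adjusted p = 6.71e-06 in LC-DTR, limma). Ocln, the tight junction protein occludin, had 28.02, 23.6, 23.4 and 23.9 TPM in LC-DTA croton oil ears, against 29.97, 29.3 and 29.6 TPM in LC-DTA vehicle ears. It fell there (-0.25 ± 0.09 with adjusted p = 0.0297, limma). The LC-DTR result of Ocln is not reported here, so the fall is not set against that genotype. Of 10 desmosomal plaque and cornified desmosome genes, 1 rose and 5 fell in LC-DTA, and 1 rose and 4 fell in LC-DTR, both near the shares over all genes. Dsp, which ties desmosomes to keratins, fell in both (-0.33 ± 0.08 with adjusted p = 0.00385 in LC-DTA and -0.42 ± 0.08 with adjusted p = 0.000926 in LC-DTR, limma). The gene that rose in both was Pkp4 (0.87 ± 0.12 with adjusted p = 3.42e-05 in LC-DTA and 1.05 ± 0.12 with adjusted p = 1.47e-05 in LC-DTR).

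Of 11 adherens junction genes, 3 rose and 4 fell in LC-DTA (63.6% called, against 58.7% of all genes), and 3 rose and 1 fell in LC-DTR (36.4%, against 51.6%). Cdh3, the cadherin of basal keratinocytes and hair placodes, had 80.1, 81.98, 112 and 92.3 TPM in LC-DTA croton oil ears, against 27.1, 29.5 and 27.97 TPM in LC-DTA vehicle ears. In LC-DTR, Cdh3 had 147, 95.8, 91.9 and 166 TPM in croton oil ears, against 33.3, 37.3 and 24.5 TPM in vehicle ears. This was a rise of 1.65 ± 0.20 (adjusted p = 1.47e-05) in LC-DTA and 1.92 ± 0.20 (adjusted p = 8.32e-06) in LC-DTR (limma). Cdh1, the main cadherin of epithelia, was not called in either (0.01 ± 0.06 with adjusted p = 0.874 in LC-DTA and 0.09 ± 0.06 with adjusted p = 0.235 in LC-DTR, limma). Of the 2 pannexins tested, which form channels related in shape to connexin hemichannels, Panx1 rose in both genotypes (0.99 ± 0.11 with adjusted p = 9.27e-06 in LC-DTA and 0.36 ± 0.11 with adjusted p = 0.0146 in LC-DTR, limma). Panx3 averaged 27.5 ± 7.22 TPM in LC-DTR croton oil and 55.7 ± 14.02 TPM in LC-DTR vehicle ears and fell there (-0.999 ± 0.22 with adjusted p = 0.002, limma). In LC-DTA it was not called (-0.08 ± 0.22 with adjusted p = 0.765). Among 12 barrier transcription factors, 4 rose and 4 fell in LC-DTA (66.7% called), and 3 rose and 2 fell in LC-DTR (41.7%). Among 11 junction sheddases and proteases, 7 rose and 2 fell in LC-DTA (81.8% called), and 6 rose and 0 fell in LC-DTR (54.5%). Adam17, a sheddase whose known substrates include desmogleins, rose in LC-DTA (0.44 ± 0.06 with adjusted p = 3.54e-05, limma) and was not called in LC-DTR (-0.05 ± 0.06 with adjusted p = 0.478).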

How the data were processed

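Per the labels' protocols, whole ear RNA of 14 samples was prepared with Qiagen RNeasy and sequenced from Illumina TruSeq Stranded mRNA libraries. Tools named in the submitters' processing notes are cutadapt, HISAT2, Subread and featureCounts, with the build mm10. The authors deposited TPM, 1 value per gene and sample. The sources used here do not say how TPM were computed, with which annotation, or with which strand setting. TPM hold no read depth, counting intervals are therefore not given, and a very abundant gene lowers the TPM of others.

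Rows named as dates (27 of 24062, with 0.124 to 0.145% of TPM) were left out. Genes with at least 1 TPM in at least 3 samples (14693) entered a single limma model (limma 3.58.1, R 4.3.3) on log2(TPM + 1), with 4 group means and a mean-variance trend. Two-sided p-values were corrected after Benjamini and Hochberg in each of 5 comparisons. Members and gene lists were chosen with earlier results of these data known. Of 153 list entries 152 were found, 6 under an older symbol. Genes named were those at 20 TPM or more, called members, and up to 4 genes of lowest p of each other list or where a result turned on one. Counts cover all members, but some members and list genes are not reported here by name. Alternatives were a pseudocount of 0.1, no filter, a filter of 5 TPM, median ratio and quantile scaling, a replicate block, and leaving out samples. The median ratio scaling moved the median of all genes by less than 0.1 in each comparison. Positions are from GENCODE M21 (GRCm38), and promoters from RefSeq (GRCm38.p6). Python 3.11.15 with pandas 2.3.3 and matplotlib 3.10.9 handled tables and figures.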

Additional observations from a re-analysis of the deposited data

Results flagged for a closer look

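In 4 of 64 groups of 4 croton oil samples, 1 per gene and genotype, a sample lay farther from the others than Dixon's 95% critical value allows. Chance would pick about 5% of such groups. Cldn1 was at 362 TPM in LC-DTA croton oil sample 4, where the other 3 lay between 311 and 317 TPM. Gjb1 was at 5.07 TPM in LC-DTA croton oil sample 3. Gjc1 was at 4.57 TPM in LC-DTA croton oil sample 1. Cldn10 was at 5.40 TPM in LC-DTR croton oil sample 1.

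The limma test of the difference of croton oil responses between LC-DTA and LC-DTR ears called 10 members, and 9 are given here. On the log2 scale, LC-DTA minus LC-DTR, the difference was -1.73 for Cldn2, -1.02 for Cldn3 and -0.57 for Cldn4. It was 0.45 for Dsc1, 1.37 for Dsc2, 0.42 for Dsc3, 0.61 for Dsg1b, 0.71 for Gjb1 and 1.37 for Gjb6. As given above, the Cldn4, Dsc1 and Gjb1 calls were lost when single samples were left out.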

How the results depend on the processing

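No called member changed sign under any setting tried. Of the single-gene values under the alternatives, 3225 kept their side of the threshold, 120 lost a call and 62 gained one. The other 78 were values without a call that changed sign. Under vehicle, 5 members were higher in LC-DTA; this became 3 with a filter of 5 TPM, with quantile normalization and with the replicate block, and 3 to 6 with 1 sample left out (3 without LC-DTA vehicle sample 2 or 3 or LC-DTR vehicle sample 2). The 7 lower ones became 3 to 8 with 1 sample left out. They were 3 without LC-DTA vehicle sample 3 or LC-DTR vehicle sample 2, and 4 without LC-DTA vehicle sample 1 or LC-DTR vehicle sample 1. For the difference of responses, the 4 lower members became 2 with the replicate block and 2 without LC-DTA croton oil samples 3 and 4. With 1 sample left out they were 2 to 5, with 2 without LC-DTA vehicle sample 1 or 2 or LC-DTR croton oil sample 4. The 6 higher members of the difference were 4 to 7 with 1 sample left out (4 without LC-DTA vehicle sample 2). Other counts stayed within 1.5 times. The cause of these shifts was not tested. Samples of different groups share replicate numbers. The correlations of their deviations from the group means ran from -0.315 to 0.126 over 19 pairs. These values gave no sign of pairing by number, but with so few ears per group they cannot exclude it. Of the 14 samples, 0 correlated best with their own number in every other group that holds it. That count cannot exclude a pairing either. Read depth is unknown, so it could not be set against these changes.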
